A study of Mus musculus with 6 samples.

Results

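The SR protein and hnRNP genes are the protein-coding genes whose mouse symbols begin with *Srsf* and a digit or with *Hnrnp*. The rule uses no measured value, although it was chosen with earlier results of these data known. By this rule 31 of the 22380 gene identifiers in each library were members, 11 of them SR proteins and 20 hnRNPs. They were compared between 3 *Ctrl* and 3 *Tet iTKO* mouse embryonic stem cell (mESC) lines by bulk Smart-Seq2 RNA sequencing, to ask which splicing regulators differed in level after the loss of the TET enzymes, which oxidize 5-methylcytosine in DNA. Both groups were CreERT2 wt/ki, that is, they carried a tamoxifen-inducible Cre recombinase driven by the ubiquitin C promoter, and both had the Cre-dependent H2B-EGFP reporter Gt(ROSA)26Sor<tm1Ytchn>/Jwt/ki. The *Tet iTKO* lines in addition carried Tet1/2/3fl/fl alleles, so that the inducer deleted exons of *Tet1*, *Tet2* and *Tet3* in them and none in *Ctrl*. Both received 1 µM 4-hydroxytamoxifen, called tamoxifen in the sample titles, for 2.5 days. They were then cultured for 4 further days in 2i medium on fibroblast feeders. At day 6.5 they were sorted as live CD326+ GFP+ Thy1.2- cells, so the controls shared the Cre, the reporter and the drug. Each line came from a different embryo, and a line is 1 derivation.

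SR proteins carry RNA recognition motifs and a tail rich in serine and arginine, bind exonic sequences and generally help the spliceosome to choose nearby splice sites. The hnRNPs coat nascent transcripts, often repress exon inclusion or act from introns, and also take part in 3′ end formation, mRNA export and stability. Many genes of both families limit their own output through a poison exon, an exon with a premature stop codon whose inclusion sends the transcript to nonsense-mediated decay (NMD). In pluripotent cells members of both families have been linked to the splicing of pluripotency regulators and to self-renewal.

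The values are counts per whole gene, divided by a size factor for each library and rounded, and are called normalized counts below. The libraries summed to between 3964824 and 4219665 normalized counts, behind which an estimated 3.66 M to 5.10 M reads lay on genes. Counts over a whole gene do not separate its isoforms, so a productive mRNA and a transcript with a poison exon or a retained intron add to the same value, and 19 of the 31 members have an annotated NMD transcript and 22 an annotated retained-intron transcript. The floxed exons cannot be set apart either. Over the whole gene *Tet1* had 696, 682 and 716 normalized counts in *Ctrl* against 787, 895 and 753 in *Tet iTKO*, *Tet2* had 249, 170 and 230 against 233, 268 and 211, and *Tet3* had 28, 13 and 13 against 10, 3 and 3. Whole-gene values of *Tet1* and *Tet2* therefore did not check the deletion. Among cell markers, 14 of mESC summed to 34874 to 35017 in *Ctrl* and 30656 to 31575 in *Tet iTKO*, with *Fut4* at 3 or less throughout. The sums over 15 fibroblast markers were 2760 to 2897 and 3066 to 3158, with *Postn* at 3 or less, those over the 16 of 17 differentiation markers that were found 2126 to 2200 and 2618 to 2758, with *Foxa2* and *Neurog2* at 3 or less, and those over the 8 of 11 markers of 2-cell-like cells that were found 14 to 26 and 170 to 194, with *Zfp352* and *Tdpoz4* at 3 or less. The part of these cells in the results was not tested, and in bulk RNA fewer cells of a type and less RNA per cell cannot be told apart. Genes within a list did not all move with its sum. Of the fibroblast markers *Fn1* had 1371, 1370 and 1475 in *Ctrl* against 2030, 2083 and 2020 in *Tet iTKO*. *Vim* went the other way, with 1038, 1078 and 1057 against 463, 496 and 503. By the test described below, *Vim* was the only 1 of the 8 fibroblast markers tested that was called lower. The 4 called higher were *Fn1*, *Col1a1*, *Col1a2* and *Col3a1*. After a correction for transcript GC content and length, *Col1a2* and *Col3a1* were still called higher and *Vim* lower. *Dnmt3b* made up most of the differentiation sum, with 2031, 2070 and 2033 in *Ctrl* against 2340, 2502 and 2425 in *Tet iTKO*. All 7 differentiation markers tested were higher without overlap between the groups, where 21.2% of all genes tested were. Of the 7, 5 were called higher, or 3 after the correction, when *Dnmt3b* (-0.03) was not called. Of the mESC markers *Dppa5a* was lower and *Epcam* higher in every *Tet iTKO* line. Among the 13 tested, 5 were called lower, with *Pou5f1* and *Nanog* among them, and 4 higher. After the correction 5 were called lower and 2 higher, and *Dppa5a* (0.08) was not called. Over all genes tested 18.4% were called lower and 16.4% higher, and 19.2% and 9.5% after the correction.

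Differences between the groups were tested with limma on log2(normalized count + 1) for every gene with a mean of at least 10, which understates the change of low genes, and a gene was called at a Benjamini-Hochberg adjusted p under 0.05 over all 10524 genes tested. Of the 31 members, 30 passed the filter. The test called 4 of them lower and 10 higher in *Tet iTKO*, and 16 were not called. Over all genes tested it called 18.4% lower and 16.4% higher, so that lower calls were somewhat rarer and higher calls more frequent among the 30 members than among all genes, a difference that was not tested. The log2 fold changes of the members ran from -0.59 to 0.45, and 0 reached a size of 1. Their median was 0.08, against 0.01 over all genes.

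The families were unlike in their counts. Of the 10 SR proteins that passed the filter 3 were called lower and 2 higher, with a median log2 fold change of -0.12. Of the 20 hnRNPs 1 was called lower and 8 higher, with a median of 0.13. The shares over all genes tested were 18.4% lower and 16.4% higher. When the variance was not allowed to depend on level, 2 SR proteins were called lower and 0 higher, and 1 hnRNP lower and 2 higher. The share of all genes called in that setting was not counted. Calls among 127 other splicing genes, described below, also fell in it, from 26 lower and 27 higher to 16 and 12. Fitted changes below 0 were found for 8 SR proteins, which became 6 under quantile normalization and under total-count scaling, and changes above 0 for 17 hnRNPs, which became 19 under both scalings and 15 after a correction for transcript GC content and length. The median over all genes moved as well, from 0.01 to -0.007 under quantile normalization, 0.10 under total-count scaling and -0.06 after the correction. The share of all genes above 0 was not counted, and the difference between the families was not tested.

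**Figure D1:**
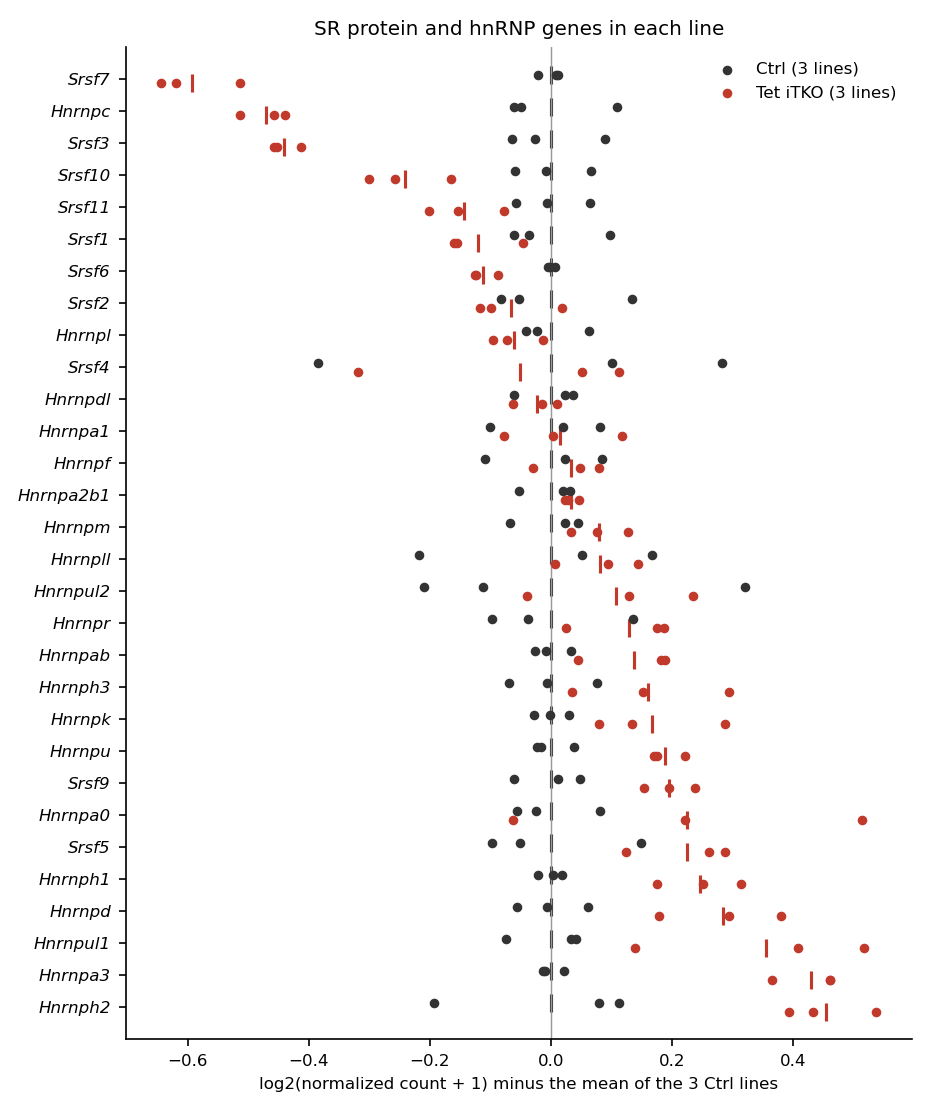
Each row is 1 of the 30 genes that passed the filter, ordered by the fitted difference, and the x axis gives log2(normalized count + 1) minus the mean of the 3 *Ctrl* lines. Points are lines, in black for *Ctrl* and red for *Tet iTKO*, and vertical ticks are group means. The red points lie left of all black points for *Srsf7*, *Hnrnpc*, *Srsf3*, *Srsf10*, *Srsf11* and *Srsf6* and right of them for the 9 genes from *Hnrnpab* to *Hnrnph2* whose groups do not overlap.

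The promoters of the 5 members whose calls held under all 17 alternative treatments of the values are shown here, because TET enzymes act at CpG dinucleotides and the starts of most members are rich in them. Each is the RefSeq window on GRCm38.p6 from 250 bases before to 50 bases after the transcription start, read 5′ to 3′ on the strand of the gene, with CG dinucleotides in capitals. The windows are chr17:80207256-80207555 on the minus strand for *Srsf7*, chr17:29032410-29032709 on the plus strand for *Srsf3*, chr14:52103972-52104271 on the minus strand for *Hnrnpc*, chr2:75659009-75659308 on the plus strand for *Hnrnpa3* and chrX:134600929-134601228 on the plus strand for *Hnrnph2*.
Srsf7: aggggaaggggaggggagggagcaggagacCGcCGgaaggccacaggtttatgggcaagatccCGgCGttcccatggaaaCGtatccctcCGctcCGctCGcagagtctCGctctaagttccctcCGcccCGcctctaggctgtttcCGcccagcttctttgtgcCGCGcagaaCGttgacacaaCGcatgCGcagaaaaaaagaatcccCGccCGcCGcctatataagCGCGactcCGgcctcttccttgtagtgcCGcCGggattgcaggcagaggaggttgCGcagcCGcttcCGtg
Srsf3: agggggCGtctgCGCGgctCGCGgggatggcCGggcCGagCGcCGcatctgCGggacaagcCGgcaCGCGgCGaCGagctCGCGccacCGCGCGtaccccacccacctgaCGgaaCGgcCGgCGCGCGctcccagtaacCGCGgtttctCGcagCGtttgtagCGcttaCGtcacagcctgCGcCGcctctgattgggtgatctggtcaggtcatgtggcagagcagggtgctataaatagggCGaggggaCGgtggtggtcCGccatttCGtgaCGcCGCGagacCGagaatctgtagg
Hnrnpc: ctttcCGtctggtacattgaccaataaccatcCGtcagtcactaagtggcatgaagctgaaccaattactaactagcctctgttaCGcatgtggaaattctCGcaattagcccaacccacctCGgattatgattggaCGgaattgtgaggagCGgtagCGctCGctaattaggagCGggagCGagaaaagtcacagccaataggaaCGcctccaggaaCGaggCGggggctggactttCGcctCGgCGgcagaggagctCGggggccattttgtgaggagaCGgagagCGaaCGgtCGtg
Hnrnpa3: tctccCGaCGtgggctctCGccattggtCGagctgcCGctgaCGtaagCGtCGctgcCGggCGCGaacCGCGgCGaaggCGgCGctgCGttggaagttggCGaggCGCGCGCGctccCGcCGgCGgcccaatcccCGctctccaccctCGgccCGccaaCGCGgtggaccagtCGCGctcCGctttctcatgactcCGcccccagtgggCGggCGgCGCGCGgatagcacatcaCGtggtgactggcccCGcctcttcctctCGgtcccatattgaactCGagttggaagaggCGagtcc
Hnrnph2: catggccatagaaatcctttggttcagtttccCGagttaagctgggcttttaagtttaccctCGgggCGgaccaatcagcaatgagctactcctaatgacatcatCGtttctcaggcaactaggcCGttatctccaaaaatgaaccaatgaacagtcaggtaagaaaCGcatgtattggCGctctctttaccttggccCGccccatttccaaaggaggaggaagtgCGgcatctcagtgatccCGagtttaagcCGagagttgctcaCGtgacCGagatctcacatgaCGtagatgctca

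These windows held 28 CG dinucleotides in *Srsf7*, 42 in *Srsf3*, 22 in *Hnrnpc*, 44 in *Hnrnpa3* and 14 in *Hnrnph2*. The median over 32851 RefSeq windows of the same length was 7, with quartiles of 3 and 20. Of the 31 members 29 were matched to a window, all but *Hnrnpll* and *Hnrnpul2*, and 27 of the 29 had at least 1 window at or above the upper quartile, all but *Hnrnpa1* and *Hnrnph2*. CpG-dense windows were thus found in members called lower, called higher and not called. A GC box (GGGCGG, either strand) was found in 24 of the 29 members against 35.7% of all windows, and the letters CCAAT on either strand in 17 of 29 against 37.4%. The letters TGACGT, the core of a cAMP response element, were found in 8 of 29 against 7.51%, *Srsf3* and *Hnrnpa3* among them, and TATAAA in 4 of 29 against 13.6%. The background windows were not limited to expressed genes, and the members were not compared with other expressed genes. Genes with several windows had more chances to hold a match, but 23 of the 29 had 1. Such matches describe letters only, and DNA methylation was not measured in these libraries.

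Among the SR proteins the genes with the clearest decreases were *Srsf7* and *Srsf3*, close paralogs that bind RNA with 1 recognition motif each and link splicing to polyadenylation and to mRNA export through the export factor NXF1. *Srsf7* (ENSMUSG00000024097.9, chromosome 17) had 2636, 2698 and 2692 normalized counts in *Ctrl* against 1873, 1712 and 1741 in *Tet iTKO*. Every *Tet iTKO* line was below every *Ctrl* line, and the highest of them was far below the lowest control. The group means were 2675 ± 34.2 (SD, n = 3) and 1775 ± 85.8 (SD, n = 3), 66.4% of the *Ctrl* mean, and the log2 fold change was -0.59 with a standard error of 0.05 (adjusted p = 3.3e-11, limma). This was the largest change of a member in size, but *Hnrnpa3* and *Hnrnph2* changed more than *Srsf7* under quantile normalization, total-count scaling and the correction for GC content and length.

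*Srsf3* (ENSMUSG00000071172.6, chromosome 17), which is needed in the early embryo, had 3599, 3235 and 3318 normalized counts in *Ctrl* against 2540, 2471 and 2461 in *Tet iTKO*. Again the groups did not overlap, with the *Tet iTKO* lines close together. Its log2 fold change was -0.44 with a standard error of 0.05 (adjusted p = 7.35e-09, limma), and its *Tet iTKO* mean was 73.6% of that of *Ctrl*. Both genes were called in each of the 17 alternatives, with adjusted p of at most 0.011 for *Srsf7* and 0.019 for *Srsf3*. A correction for GC content and length reduced the change of *Srsf7* to -0.33 and that of *Srsf3* to -0.21.

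*Srsf10* (ENSMUSG00000028676.10, chromosome 4), an SR protein that represses splicing when dephosphorylated, had 1028, 977 and 943 normalized counts in *Ctrl* against 821, 797 and 876 in *Tet iTKO*. All 3 *Tet iTKO* lines lay below the controls. The log2 fold change was -0.24 with a standard error of 0.07 (adjusted p = 0.006, limma). This call held in 12 of the 17 alternatives and not in the others, among them the correction for GC content and length (-0.14, adjusted p = 0.13) and total-count scaling (-0.16, adjusted p = 0.074).

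The 2 SR proteins called higher were *Srsf9* and *Srsf5*. *Srsf9* (ENSMUSG00000029538.7, chromosome 5), the short paralog of *Srsf1*, had 726, 764 and 783 normalized counts in *Ctrl* against 867, 843 and 893 in *Tet iTKO*. The *Tet iTKO* lines were all higher, by a log2 fold change of 0.20 with a standard error of 0.07 (adjusted p = 0.029, limma). *Srsf5* (ENSMUSG00000021134.9, chromosome 12), a shuttling SR protein, had 1000, 843 and 871 in *Ctrl* against 983, 1102 and 1082 in *Tet iTKO*. Here the groups overlapped, since *Ctrl* 1 exceeded *Tet iTKO* 1. Its log2 fold change was 0.22 with a standard error of 0.07 (adjusted p = 0.013, limma) and rose to 0.53 after the correction for GC content and length. When the variance was not allowed to depend on level, neither was called (adjusted p = 0.13 for *Srsf9* and 0.17 for *Srsf5*), and each call was lost in 4 of the 6 fits without 1 line, that of *Srsf9* without *Ctrl* 1, *Ctrl* 2, *Tet iTKO* 1 or *Tet iTKO* 3 (adjusted p up to 0.11) and that of *Srsf5* without *Ctrl* 2, *Ctrl* 3, *Tet iTKO* 2 or *Tet iTKO* 3 (adjusted p up to 0.098).

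The other 5 SR proteins that passed the filter were not called. *Srsf6*, a regulator of exon inclusion, had 2691, 2715 and 2697 normalized counts in *Ctrl* against 2479, 2542 and 2476 in *Tet iTKO*, and *Srsf11* had 819, 849 and 892 against 808, 742 and 767. In both genes the groups did not overlap, although the adjusted p were 0.073 and 0.12 (limma). *Srsf1*, the founding member of the family, had 2178, 1950 and 1984 in *Ctrl* against 1827, 1822 and 1972 in *Tet iTKO*, and the 95% interval of its log2 fold change was -0.23 to -0.01 before adjustment (adjusted p = 0.098, limma). *Srsf2*, an activator of exons that is mutated in blood cancers, had 2191, 1885 and 1924 against 2021, 1841 and 1863, and *Srsf4* had 118, 134 and 84 against 119, 88 and 114. Values of *Srsf2* and *Srsf4* overlapped between the groups. *Srsf12* had 6, 7 and 1 in *Ctrl* against 10, 9 and 12 in *Tet iTKO*, a mean under 10, and was not tested.

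The hnRNP called lower was *Hnrnpc* (ENSMUSG00000060373.7, chromosome 14), which binds uridine tracts, packages nascent RNA and keeps cryptic exons out of mRNA. It had 2522, 2259 and 2241 normalized counts in *Ctrl* against 1702, 1636 and 1723 in *Tet iTKO*. The groups were well apart, with *Ctrl* 1 the highest line. The *Tet iTKO* mean was 72.1% of that of *Ctrl*, with a log2 fold change of -0.47 and a standard error of 0.06 (adjusted p = 1.93e-08, limma). The call held in each alternative, with -0.32 after the correction for GC content and length. Its relative *Raly*, which is no *Hnrnp* symbol, had 418, 419 and 277 in *Ctrl* against 268, 236 and 261 in *Tet iTKO*, with *Ctrl* 3 just above the *Tet iTKO* lines. *Raly* was called lower by -0.52 with a standard error of 0.12 (adjusted p = 0.001, limma).

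Of the 8 hnRNPs called higher, *Hnrnpa3* and *Hnrnph2* had the largest changes. *Hnrnpa3* (ENSMUSG00000059005.6, chromosome 2), a shuttling relative of hnRNP A1, had 487, 499 and 488 normalized counts in *Ctrl* against 633, 677 and 677 in *Tet iTKO*. The *Ctrl* lines were nearly alike and all *Tet iTKO* lines were higher. The mean was 135% of that of *Ctrl*, and the log2 fold change was 0.43 with a standard error of 0.08 (adjusted p = 5.19e-05, limma). *Hnrnph2* (ENSMUSG00000045427.7, chromosome X), which binds runs of guanine, had 214, 265 and 259 in *Ctrl* against 331, 322 and 356 in *Tet iTKO*. All *Tet iTKO* lines were above all *Ctrl* lines, with a log2 fold change of 0.45 and a standard error of 0.11 (adjusted p = 0.0014, limma). Both were called in each of the 17 alternatives, with changes of 0.67 for *Hnrnpa3* and 0.66 for *Hnrnph2* after the correction for GC content and length.

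Its autosomal paralog *Hnrnph1* (ENSMUSG00000007850.10, chromosome 11) had 686, 668 and 679 normalized counts in *Ctrl* against 843, 807 and 765 in *Tet iTKO*. The controls spanned little, and the groups did not overlap. Its log2 fold change was 0.25 with a standard error of 0.07 (adjusted p = 0.0076, limma) and was 0.41 after the correction. *Hnrnpd* (ENSMUSG00000000568.9, chromosome 5), known as AUF1 for its binding to AU-rich elements that set mRNA decay, had 597, 618 and 648 in *Ctrl* against 761, 703 and 808 in *Tet iTKO*. Its groups were apart as well, with a log2 fold change of 0.28 and a standard error of 0.08 (adjusted p = 0.0037, limma).

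*Hnrnpul1* (ENSMUSG00000040725.7, chromosome 7), a relative of hnRNP U that takes part in the response to DNA damage, had 482, 522 and 519 normalized counts in *Ctrl* against 559, 727 and 674 in *Tet iTKO*. The *Tet iTKO* lines were spread widely but all were higher, with a log2 fold change of 0.36 and a standard error of 0.09 (adjusted p = 0.0015, limma). With GC content and length corrected for, the change was 0.08 and no longer called (adjusted p = 0.53). *Hnrnpu* (ENSMUSG00000039630.8, chromosome 1), a scaffold-binding protein that shapes chromatin and holds *Xist* RNA on the X chromosome, had 4623, 4449 and 4430 in *Ctrl* against 5246, 5084 and 5065 in *Tet iTKO*. The lines of each group lay close together and the groups did not overlap, with a log2 fold change of 0.19 and a standard error of 0.04 (adjusted p = 6.3e-04, limma).

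*Hnrnpk* (ENSMUSG00000021546.9, chromosome 13), which binds poly(C) tracts in RNA and DNA, had 3951, 4025 and 4113 normalized counts in *Ctrl* against 4257, 4423 and 4919 in *Tet iTKO*. *Tet iTKO* 3 stood above the other lines. The log2 fold change was 0.17 with a standard error of 0.05 (adjusted p = 0.0061, limma), and without *Tet iTKO* 3 it was 0.11 and not called (adjusted p = 0.11). *Hnrnpab* (ENSMUSG00000020358.10, chromosome 11), a relative of *Hnrnpd*, had 3849, 3742 and 3696 in *Ctrl* against 3879, 4268 and 4286 in *Tet iTKO*. *Tet iTKO* 1 lay just above the highest control. Its log2 fold change was 0.14 with a standard error of 0.05 (adjusted p = 0.02, limma), a call lost without *Ctrl* 2, *Ctrl* 3, *Tet iTKO* 2 or *Tet iTKO* 3 (adjusted p up to 0.11). Quantile normalization raised the changes of these abundant genes to 0.39 for *Hnrnpu*, 0.37 for *Hnrnpk* and 0.32 for *Hnrnpab*. When the variance was not allowed to depend on level, 8 of the 10 higher calls were lost, all but *Hnrnpa3* and *Hnrnph2*, and 1 of the 4 lower calls, that of *Srsf10*.

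The other 11 hnRNPs were not called. They include *Hnrnpa2b1*, a carrier of RNAs into granules and vesicles and the member with the highest level per length, which had 5701, 5423 and 5745 normalized counts in *Ctrl* against 5733, 5805 and 5714 in *Tet iTKO*. Its groups overlapped, and the 95% interval of its log2 fold change was -0.05 to 0.12. *Hnrnpa1*, a silencer of exons, had 1235, 1183 and 1088 against 1266, 1170 and 1106, and *Hnrnpl*, which binds CA repeats, had 2506, 2474 and 2659 against 2420, 2383 and 2521. With GC content and length corrected for, all 3 were called, *Hnrnpa2b1* higher by 0.31, *Hnrnpa1* higher by 0.18 and *Hnrnpl* lower (-0.14). *Hnrnpa0* had 230, 235 and 253 in *Ctrl* against 342, 229 and 279 in *Tet iTKO*, with *Tet iTKO* 1 high and *Tet iTKO* 2 below every control, and its log2 fold change of 0.22 was the largest of a member that was not called (adjusted p = 0.16, limma). The changes of *Hnrnpdl*, *Hnrnpf*, *Hnrnpm*, *Hnrnpll*, *Hnrnpul2*, *Hnrnpr* and *Hnrnph3* lay between -0.02 and 0.16, with overlapping groups.

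**Figure D2:**
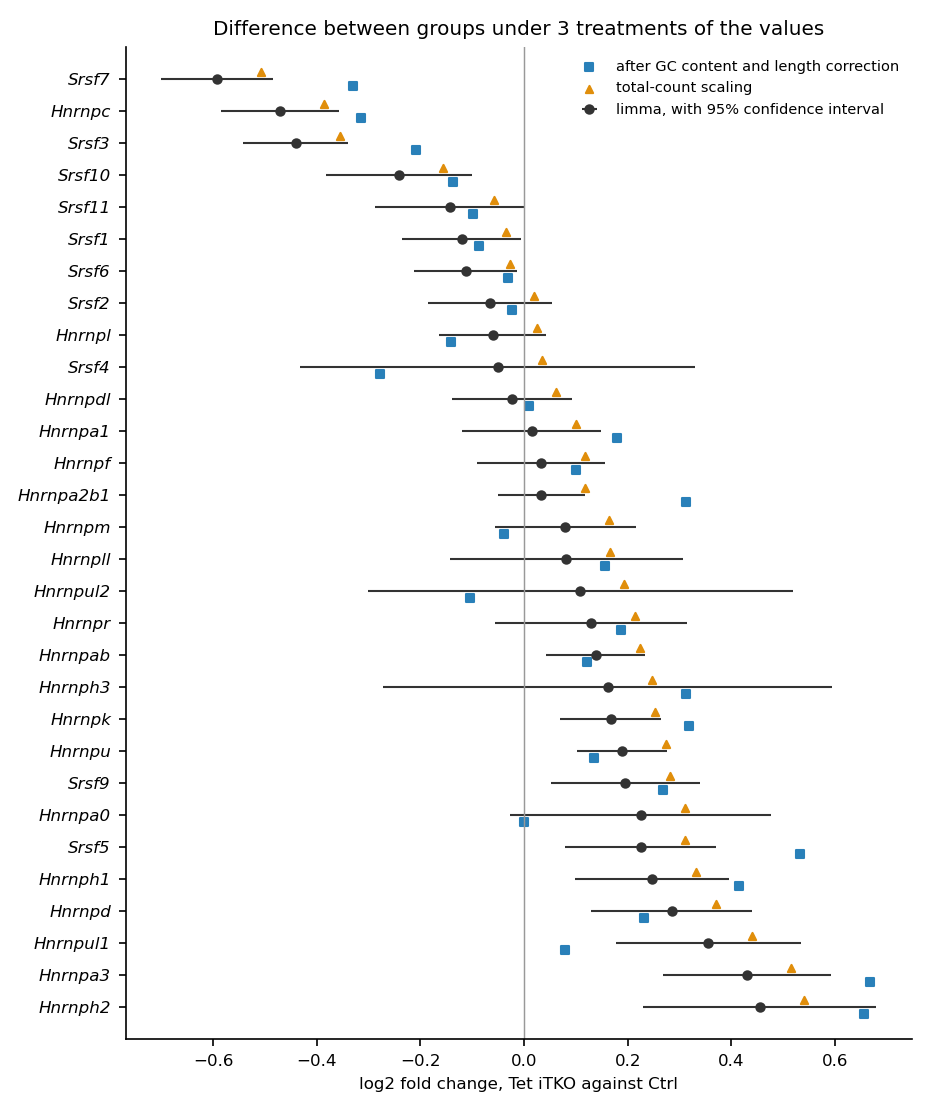
The x axis gives the log2 fold change of *Tet iTKO* against *Ctrl* for the 30 genes that passed the filter. Black points with bars are limma estimates with 95% confidence intervals, blue squares the estimates after the correction for transcript GC content and length, and orange triangles those after total-count scaling. *Srsf7*, *Hnrnpc* and *Srsf3* lie below 0 and *Hnrnpa3* and *Hnrnph2* above 0 under all 3, and *Hnrnpul1* moves from 0.36 to 0.08 with the correction.

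Across all genes the change rose with transcript GC content (Spearman 0.25) and with transcript length (0.33, over 10457 genes). The members had a median GC content of 44.5% and a median length of 2558 bases, against 50.8% and 2821 bases over all genes. With both properties fitted and removed, limma called 4 members lower and 11 higher, and 19.2% of all genes lower and 9.5% higher. Of the members 12 were called the same way in both fits, *Hnrnpl*, *Hnrnpa1* and *Hnrnpa2b1* only after the correction, and *Srsf10* and *Hnrnpul1* only without it. Of the 30 members, 6 had all *Tet iTKO* lines below and 9 all above the *Ctrl* lines, where 22.9% and 21.2% of all genes tested did. Of the 14 members called, 13 had groups that did not overlap, all but *Srsf5*.

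Added up, the 11 SR protein genes took 0.403%, 0.381% and 0.384% of the normalized counts of the *Ctrl* libraries and 0.362%, 0.352% and 0.357% of those of *Tet iTKO*. The 20 hnRNP genes took 0.757%, 0.745% and 0.753% in *Ctrl* and 0.835%, 0.839% and 0.848% in *Tet iTKO*. The SR share was lower and the hnRNP share higher in every *Tet iTKO* line, with no overlap. Both families together took 1.13% to 1.16% in *Ctrl* and 1.19% to 1.21% in *Tet iTKO*. Their summed normalized counts overlapped, however, with 48917, 47412 and 47954 in *Ctrl* against 47443, 47239 and 48159 in *Tet iTKO*, and the library totals that the shares are divided by were lower in *Tet iTKO* (3964824 to 3996522) than in *Ctrl* (4210784 to 4219665).

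**Figure D3:**
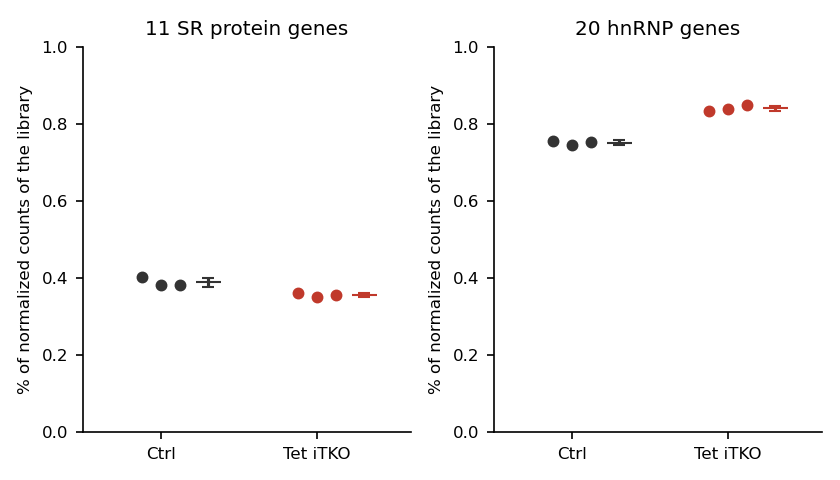
The y axis gives the summed normalized counts of the 11 SR protein genes (left) and the 20 hnRNP genes (right) as a percentage of all normalized counts of the library, from 0. Points are lines, and the bars beside them the mean with its SD (n = 3). The SR share runs from 0.381% to 0.403% in *Ctrl* and from 0.352% to 0.362% in *Tet iTKO*, and the hnRNP share from 0.745% to 0.757% and from 0.835% to 0.848%.

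Levels of different genes were compared per kb of the transcript tagged as principal in the annotation. *Hnrnpa2b1* had the highest *Ctrl* level, 3433 normalized counts per kb, followed by *Hnrnpab* with 1587, *Hnrnpk* with 1506, *Srsf3* with 1293 and *Hnrnpl* with 1189. *Srsf7* came sixth with 1169. The lowest level among the members that passed the filter was that of *Hnrnpul2*, 16.3 per kb, so the families spanned more than 2 orders of magnitude. In *Tet iTKO* lines the per-kb level of *Srsf3* was 951 and that of *Srsf7* 776. The 4 members called lower had *Ctrl* levels of 262 (*Srsf10*), 937 (*Hnrnpc*), 1169 (*Srsf7*) and 1293 (*Srsf3*) per kb, and those called higher ranged from 91.2 for *Hnrnpd* to 1587 for *Hnrnpab*.

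**Figure D4:**
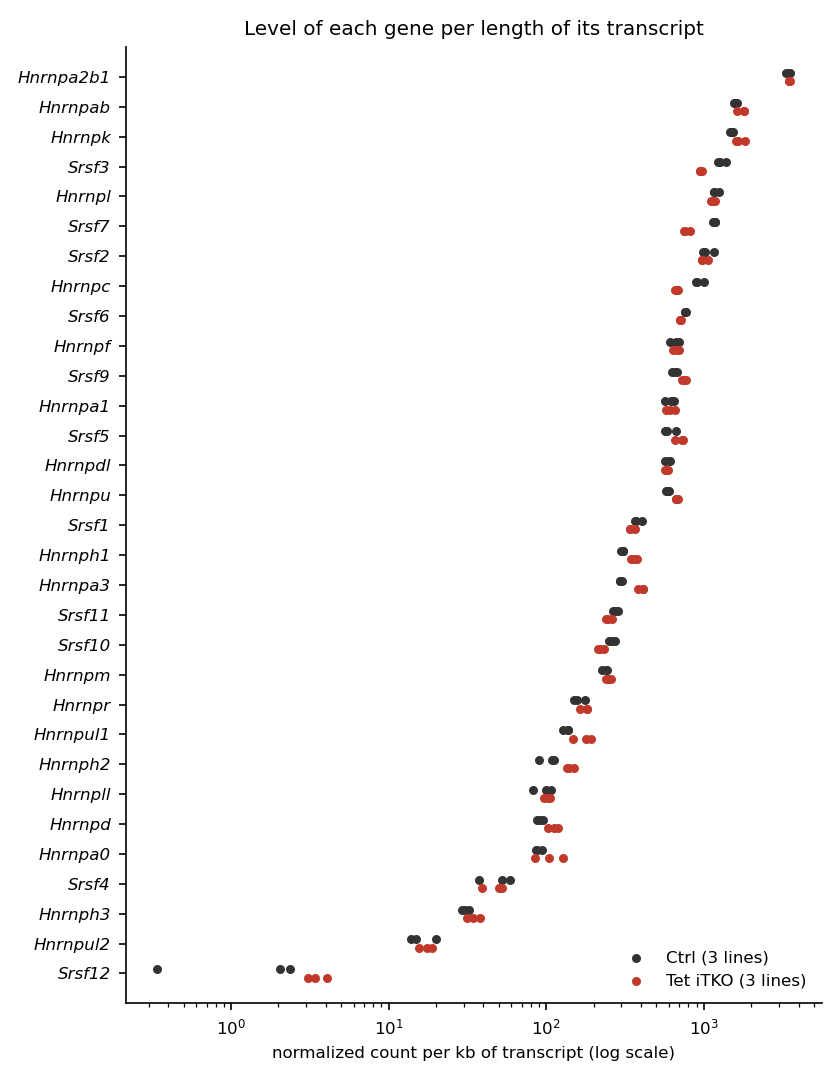
The x axis gives the normalized count per kb of transcript on a log scale for all 31 members, ordered by the mean of the 3 *Ctrl* lines. Points are lines, in black for *Ctrl* and red for *Tet iTKO*. *Hnrnpa2b1* stands at the top with a mean of 3433 in *Ctrl* and *Srsf12* at the bottom with 1.59.

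Related genes can replace each other in part, so ratios within pairs of related genes were compared as log2 ratios per line. Of 25 pairs 24 had both genes above the filter, and in 8 of them the groups did not overlap. Of single genes tested 22.9% were lower and 21.2% higher without overlap, and the share over other pairs of genes was not measured. An exact two-sided permutation test of 3 lines against 3 cannot go below p = 0.1, and each of the 8 reached it (adjusted p = 0.3 over the 24 pairs), so none passed the test. *Srsf3* and *Srsf7*, which were both lower, kept a ratio that overlapped between groups, 0.34 ± 0.10 (SD, n = 3) among the controls against 0.49 ± 0.05 (SD, n = 3) in *Tet iTKO*.

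In the hnRNP A group the log2 ratio of *Hnrnpa2b1* to *Hnrnpa3* was 3.55, 3.44 and 3.56 in *Ctrl* and 3.18, 3.10 and 3.08 in *Tet iTKO*, and that of *Hnrnpa1* to *Hnrnpa3* was 1.34, 1.24 and 1.16 against 1.00, 0.79 and 0.71. Both ratios were lower in every *Tet iTKO* line, while that of *Hnrnpa1* to *Hnrnpa2b1* overlapped. The log2 ratio of *Srsf1* to its paralog *Srsf9* was 1.58, 1.35 and 1.34 in *Ctrl* and 1.07, 1.11 and 1.14 in *Tet iTKO*, and that of *Srsf5* to *Srsf6* was -1.43, -1.69 and -1.63 against -1.33, -1.21 and -1.19. Lines of the 2 groups were again apart, the first ratio being lower and the second higher in *Tet iTKO*. The other 4 pairs without overlap were *Hnrnpd* and *Hnrnpdl*, *Hnrnpab* and *Hnrnpdl*, *Hnrnpr* and *Syncrip*, and *Hnrnpk* and *Pcbp2*, with differences of 0.16 to 0.31. With GC content and length corrected for, 5 of the 8 still had no overlap and 5 further pairs had none, 10 in all, the latter being *Srsf4* to *Srsf5*, *Hnrnph1* to *Hnrnph2*, *Hnrnph1* to *Hnrnpf*, *Hnrnpl* to *Hnrnpll* and *Ptbp1* to *Ptbp3*. The ratios of *Hnrnpd* to *Hnrnpdl*, *Hnrnpr* to *Syncrip* and *Hnrnpk* to *Pcbp2* overlapped after it.

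**Figure D5:**
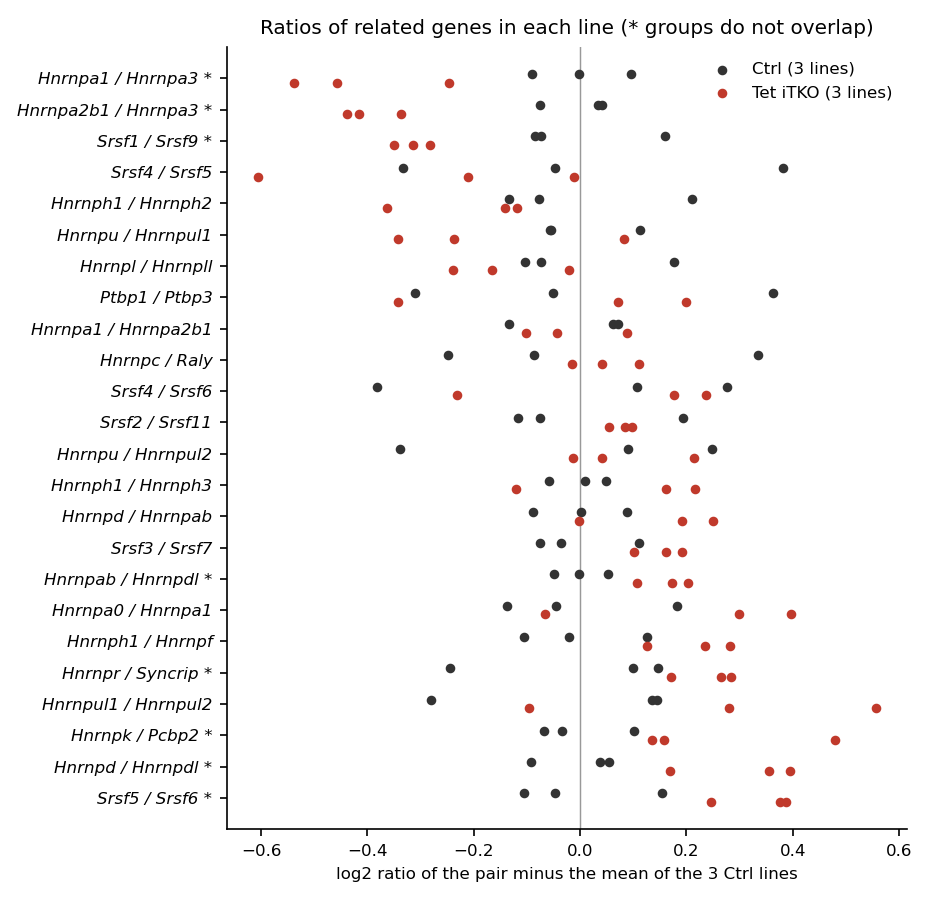
Each row is 1 of the 24 pairs, and the x axis gives the log2 ratio of the first to the second gene minus its mean over the 3 *Ctrl* lines. Points are lines, in black for *Ctrl* and red for *Tet iTKO*, and an asterisk marks the 8 pairs whose groups do not overlap. The differences run from -0.42 for *Hnrnpa1* to *Hnrnpa3* to 0.34 for *Srsf5* to *Srsf6*.

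Some members share sequence with processed pseudogenes, and the authors kept only reads that aligned to 1 place, so reads that fell wholly within shared stretches were not counted. Of the 50-base words in the transcript of *Hnrnpa3* 90.5% also occur in other genes of the annotation, 41 of the 45 such genes being pseudogenes. The share was 59.6% for *Hnrnpf*, 46.4% for *Hnrnpa1*, 38.3% for *Hnrnpk*, 31.5% for *Srsf3*, 30.9% for *Hnrnph2*, 13.4% for *Hnrnpc* and 0.938% for *Srsf7*. It was 0 for 13 members. How many read pairs of *Hnrnpa3* and the others were left out, and so how far their levels per kb are understated, was not measured, since a mate outside a shared stretch can place a pair. Reads of opposite-strand neighbours, such as *Rmi1* at *Hnrnpk* (168 to 241 normalized counts), *Phykpl* at *Hnrnpab* (37 to 68) and *Cox20* at *Hnrnpu* (0 to 4), cannot be told apart in a library that does not keep strand.

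Annotated NMD transcripts did not go with 1 direction. Of the 19 members that passed the filter and have one, 2 were called lower and 5 higher, and of the 11 without one, 2 and 5. The genes of the NMD pathway, which degrade such transcripts, were counted over a list of 18. Of these 2 were called lower and 5 higher, with a median of 0.18, but 4 lower and 3 higher with a median of 0.02 after the correction for GC content and length. Over all genes 18.4% were called lower and 16.4% higher without it, and 19.2% and 9.5% with it. *Magoh*, a core subunit of the exon junction complex, had 549, 561 and 511 normalized counts in *Ctrl* against 326, 366 and 397 in *Tet iTKO*, a log2 fold change of -0.58 with a standard error of 0.09 (adjusted p = 5.31e-06, limma). *Casc3*, another subunit of that complex, had 297, 366 and 352 against 451, 475 and 534 and was called higher by 0.53 (adjusted p = 5.81e-05, limma), or 0.27 after the correction. The RNA helicase gene *Dhx34* had 76, 102 and 67 against 135, 146 and 119 and was higher by 0.72 (adjusted p = 0.0025, limma). In none of these 3 did the groups overlap, but *Magoh* (-0.04) and *Dhx34* (0.13) were not called after the correction for GC content and length.

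The other genes of the splicing pathway were counted over 5 lists of 134 symbols in all, of which 127 were tested, with 26 called lower and 27 higher, near the shares over all genes of 18.4% and 16.4%. In the core spliceosome 16 of 42 genes were called lower and 7 higher, with a median of -0.13. Quantile normalization gave 13 and 13, total-count scaling 14 and 13, and the correction for GC content and length 12 and 3. Over all genes the correction gave 19.2% lower and 9.5% higher, and the shares under both scalings were not counted. *Snrpd1*, a core Sm protein of the small nuclear ribonucleoproteins, had 602, 572 and 547 normalized counts in *Ctrl* against 332, 356 and 332 in *Tet iTKO*, with a log2 fold change of -0.75 and a standard error of 0.09 (adjusted p = 1.69e-08, limma) and of -0.29 after the correction. The Sm genes *Snrpf* (-0.70) and *Snrpe* (-0.62) were called lower too but not after the correction (-0.22 and -0.02). *Sf3b5*, a subunit of the U2 snRNP complex that recognizes the branch point, had 1516, 1402 and 1537 against 896, 995 and 936 (-0.66, adjusted p = 2.96e-10, limma), and the helicase gene *Dhx16* had 1670, 1667 and 1664 against 1046, 1081 and 1110 (-0.63, adjusted p = 1.29e-10, limma, and -1.04 after the correction). Every *Tet iTKO* line was below every *Ctrl* line in these genes. *Dhx8*, a helicase that releases the spliced mRNA, was called higher by 0.52 (adjusted p = 8.32e-05, limma), or 0.27 after the correction.

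Of 20 relatives of the hnRNPs 4 were called lower and 4 higher, with 3 and 6 under total-count scaling but 6 and 1 after the correction for GC content and length. Beside *Raly* the largest change called was that of *Khsrp*, a KH-type splicing and decay factor, which had 1010, 1285 and 1328 normalized counts in *Ctrl* against 1726, 1739 and 1642 in *Tet iTKO* (0.50, adjusted p = 5.71e-07, limma) and 0.06 after the correction for GC content and length. Of 23 SR-related genes and SR kinases tested 1 was called lower and 4 higher, with 0 and 6 under total-count scaling but 3 and 1 after the correction for GC content and length. Of 24 other splicing regulators tested 3 were called lower and 7 higher, with 0 and 10 under that scaling and 4 and 6 after the correction. Over all genes 18.4% were called lower and 16.4% higher, and 19.2% and 9.5% after the correction. The shares under total-count scaling were not counted, but it moved the median over all genes from 0.01 to 0.10. The other splicing regulators held the 3 genes of the splicing lists that were called with a log2 fold change over 1. *Esrp1* and *Esrp2*, which direct epithelial splicing, had 37, 54 and 39 against 114, 95 and 91 and 15, 29 and 16 against 47, 50 and 39. *Rbm47*, an RNA-binding protein of epithelia and of RNA editing, had 93, 97 and 96 against 179, 182 and 253. All *Tet iTKO* lines were above all *Ctrl* lines in the 3 genes, with log2 fold changes of 1.20, 1.19 and 1.08 (adjusted p = 8.78e-05, 0.0071 and 1.38e-06, limma). Of the 3, *Esrp2* was not called after the correction for GC content and length (0.85, adjusted p = 0.063).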

How the data were processed

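RNA from 6 sorted mESC lines, 3 *Ctrl* and 3 *Tet iTKO*, was made into Smart-Seq2 libraries of 50-base paired reads. The authors aligned them with STAR, keeping unique alignments, counted with HTSeq 0.7.1 and normalized with DESeq2 1.26.0, and mm9 is the build in the submitters' processing notes. The deposited values have the unit score, since they are counts divided by a size factor and rounded, not read counts, so no count test was run. GENCODE M21 (GRCm38) paired 20775 of 22380 identifiers with symbols, and lengths and GC content came from it. The kit does not keep strand, although reads were counted as stranded. Columns left unused numbered 0.

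Groups were compared in limma 3.58.1 (R 4.3.3, eBayes with trend) on log2(value + 1) at a mean of at least 10. On simulated data of this design limma called 47, 24, 33 and 48 of 50 genes changed by -1, -0.5, 0.5 and 1 (log2), and 3 of 10083 unchanged ones, with 10283 tested. The GC content and length correction subtracted a loess fit (span 0.3) in each library. Replicates differed by 2.71 to 3.31 times the sampling variance, so no library was a duplicate. Deviations of lines with the same replicate number correlated at -0.01 to 0.00, so the numbers did not pair the lines. Size factors, and from them depth, were estimated from the whole numbers that rounding skips (20 of 20 simulated ones recovered within 1%), and precision covers counting error only. Values per line were given for members called without overlap, for the 5 largest changes and 5 highest levels per kb, and for list genes called at a size of 0.5 or more, up to 8 a list. Values of the other members were given because they are members. The members, lists and pairs were chosen with earlier results of these data known. Alternatives were pseudocounts of 0.5 and 4, filters at a mean above 0 or of at least 50, trimmed-mean, quantile and total-count scaling, eBayes without trend, a replicate block, the correction with and without it, and leaving out each line.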

Additional observations from a re-analysis of the deposited data

How the results depend on the processing

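The count of members called lower stayed at 3 or 4 in all 17 alternatives. The count called higher (10) was 2 in eBayes without trend and 6 to 9 without 1 line, lowest without *Tet iTKO* 3. Of the other splicing genes 26 were called lower and 27 higher. Without trend these were 16 and 12. The higher count was 14 after the GC content and length correction with or without a replicate block, and 42 under total-count scaling, which was chosen after seeing the data. Of all genes 16.4% were called higher, and 9.5% after the correction. The shares of all genes without trend and under total-count scaling were not counted. The median of the members (0.08) moved to 0.13 under quantile normalization and 0.17 under total-count scaling. Over all genes the median was 0.01 in the main fit, -0.007 under quantile normalization and 0.10 under total-count scaling. The log2 fold change of *Tet1* (0.21) turned to -0.055 after the correction, with or without the block. The cause of these changes was not tested. The replicate block alone gave 4 members lower and 10 higher, 28 other splicing genes lower and 27 higher, and a median of 0.08. It moved no count by over 1.5 times. The ratios of related genes had no fit with the block, and 8 pairs without overlap became 9 to 12 when 1 line was left out, since fewer lines overlap less often. At this depth the simulated fits called 24 of 50 genes lowered by 0.5 (log2) and 33 of 50 raised by it. The simulation changed 50 genes at each size among 10283, whereas 1934 genes were called lower and 1731 higher in the data. A low adjusted p was thus harder to reach in the simulation, and the share that would be found among the members was not measured. Among the 16 members not called, the 95% intervals before adjustment ran from -0.43 to 0.59. They left out a decrease of 0.5 in each, and 2, *Hnrnpul2* and *Hnrnph3*, reached an increase of 0.5.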
